A study of Mus musculus with 7 samples.

Results

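Notch signaling was examined in LSK cells, the lineage-negative, Sca1+, cKit+ fraction of mouse bone marrow (BM) where hematopoietic stem cells (HSCs) reside together with multipotent progenitors, through 10 of the 48440 genes in the deposited table, chosen by gene symbol. They are the receptors Notch1, Notch2, Notch3 and Notch4, the DNA-binding effector Rbpj, the target genes Hes1, Hey1 and Nrarp, and the Deltex ubiquitin ligases Dtx1 and Dtx4. All 10 were found, and 9 of them entered the test, which covered the 16251 genes averaging 10 or more normalized counts. Hey1 did not.

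The 4 wild-type and the 3 PROSER1 KO libraries came from BM chimeric mice, in which C57BL/6 recipients had received 9.5 Gy in a pair of equal doses and unfractionated BM of a wild-type or a PROSER1 KO donor. The KO was constitutive and endonuclease-mediated, so that it was present in every donor cell, whereas the cells of the recipient's own niche carried the wild-type gene in both groups. LSK cells were sorted 77 days after transplantation without further treatment, and the methods name no donor marker for this sort. The comparison asks what loss of PROSER1, an interactor of the TET enzymes, changes in the mRNA of stem and progenitor cells. The age of the animals and any pooling are not given in the sources used here, and p-values measure the spread between these libraries.

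Notch receptors are single-pass membrane proteins that bind Delta-like or Jagged ligands on a neighboring cell. Ligand binding exposes the receptor to ADAM proteases and then to gamma-secretase, which frees the intracellular domain to enter the nucleus, join RBPJ and Mastermind-like coactivators and switch on genes that RBPJ otherwise keeps silent with corepressors. In blood formation the pathway is known for the emergence of HSCs from embryonic endothelium, in which Notch1 is needed, for the choice of the T lineage over the B lineage, driven by Notch1 in the thymus, and for marginal zone B cells, which depend on Notch2.

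RBPJ recognizes DNA with the core TGGGAA, and the promoters of members were read for it because the targets of the pathway are defined by this factor. Hes1, Hey1 and Dtx4 had no entry among the RefSeq promoters (GRCm38.p6) used here and were not read. The other 7 members had at least 1 promoter there, with 8 promoters between them. TGGGAA or its reverse complement TTCCCA lay within the 250 bases before the start in 2 of these 8, which are overlapping promoters of Rbpj itself that share 1 site, so that they hold 2 separate sites, against 21.6% of all 32851 promoters. Shown 5′ to 3′ with the matches in capitals are 120 bases each of Nrarp, the member whose groups did not overlap (chr2:25180638-25180757, forward strand, no match), of Rbpj (chr5:53590176-53590295, forward strand, matches that begin 149 and 65 bases before the start, the second on the reverse strand) and of Hes5, a target of the wider pathway list (chr4:154960803-154960922, forward strand, a match that begins 82 bases before the start, with another outside the bases shown). A match is only a description of these letters, and binding was not measured here.
Nrarp: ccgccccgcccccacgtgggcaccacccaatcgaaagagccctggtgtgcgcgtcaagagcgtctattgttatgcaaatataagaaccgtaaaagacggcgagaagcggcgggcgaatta
Rbpj: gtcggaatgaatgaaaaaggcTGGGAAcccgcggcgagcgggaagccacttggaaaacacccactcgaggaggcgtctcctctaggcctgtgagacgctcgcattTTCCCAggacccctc
Hes5: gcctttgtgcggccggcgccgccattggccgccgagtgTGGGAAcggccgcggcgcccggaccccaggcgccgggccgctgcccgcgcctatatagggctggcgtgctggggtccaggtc

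The libraries held 33143619 to 45140743 read pairs on genes. Values are normalized counts, that is, read pairs per gene divided by 1 size factor per library, and a gene listed at 0 could still have up to 3 read pairs, or 2.54 to 3.48 normalized counts, from counting error alone. Proser1, the targeted gene, was not lower in the libraries labelled PROSER1 KO. It had 2019 to 2153 normalized counts in wild-type and 2338 to 2464 in the KO libraries, so that every direction below rests on the labels. The difference was 0.19 on the log2 scale (p = 0.0286 in a two-sided exact permutation test, which cannot go lower with 4 against 3 libraries). In the limma fit used below, its Benjamini-Hochberg adjusted p-value was 0.204. Of all genes tested, 5.17% lay higher without overlap. The LSK markers were abundant, with Kit at 25535 to 32357 and Cd34 at 29694 to 36918 normalized counts. Plasma cell mRNA was present in every library (Jchain at 151607 to 384345), and immunoglobulin genes held 5.16% to 12% of normalized counts.

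One library stood apart in genes of the T lineage, which matter here because Notch1 drives that lineage. PROSER1 KO replicate 1 had the highest value of 7 of the 9 T and innate lymphoid markers, the exceptions being Cd4 and Klrb1c. For Lck, the most abundant, it was only slightly above wild-type replicate 1 (2230.3 against 2122 normalized counts). The same held for Thy1 (1348 against 1341) and Cd8a (33.4 against 31.7). The genes of the T cell receptor complex, named here after their values were seen, stood further apart. Cd3g, a subunit of the T cell receptor complex, was at 697 normalized counts there and at 20.9 to 52.9 in the other 6 libraries, and Cd3e at 197 against 5.75 to 24.0. The summed level of the 9 markers was 5304 in that library, 2386 and 2516 in PROSER1 KO replicates 2 and 3, and 2967 to 4197 in wild-type, with the highest wild-type value in replicate 1. PROSER1 KO replicate 1 did not stand apart in T-lineage genes alone. It was also highest for 6 of the 7 megakaryocyte markers. Their sum was 12181 there, 9717 and 9359.8 in PROSER1 KO replicates 2 and 3, and 7144 to 9034 in wild-type. In the other lists it was highest for 2 of 8 LSK, B-cell, endothelial, and stromal and mural markers each, 1 of 7 macrophage and 0 of 8 plasma cell markers. Log2 fold changes of the tested members are therefore also given without PROSER1 KO replicate 1. In bulk RNA, more cells of a type and more RNA per cell cannot be told apart.

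No member was differentially expressed. With limma on log2(normalized count + 1), 0 of the 9 tested members passed a Benjamini-Hochberg adjusted p-value under 0.05 together with a fold change above 1.5, against 0.258% of all genes tested (0.123% higher and 0.135% lower), and 1 member, Nrarp, had an unadjusted p-value under 0.05, as did 9.73% of all genes. edgeR also called 0 of 9 members (1 at an unadjusted p-value under 0.05), against 0.246% of all genes, and DESeq2 0 of 10 (2), against 0.630%. The DESeq2 share is of the 26182 genes with a DESeq2 p-value. Hey1 was among these but had no adjusted p-value, so that it could not be called. The log2 fold changes of the 9 members lay between -0.44 (Dtx1) and 0.60 (Notch3) with a median of 0.10, against a median of 0.0015 over all genes tested. Of the 9, 8 were above 0, but 3 of these (Notch1, Notch4 and Hes1) were below 0 when PROSER1 KO replicate 1 was left out, at -0.05, -0.01 and -0.17. The intervals differed widely in width. A 1.5-fold difference lay outside the 95% interval of limma for Notch1, Notch2, Notch4, Rbpj and Dtx4, and inside it for Notch3, Hes1, Nrarp and Dtx1.

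**Figure D1:**
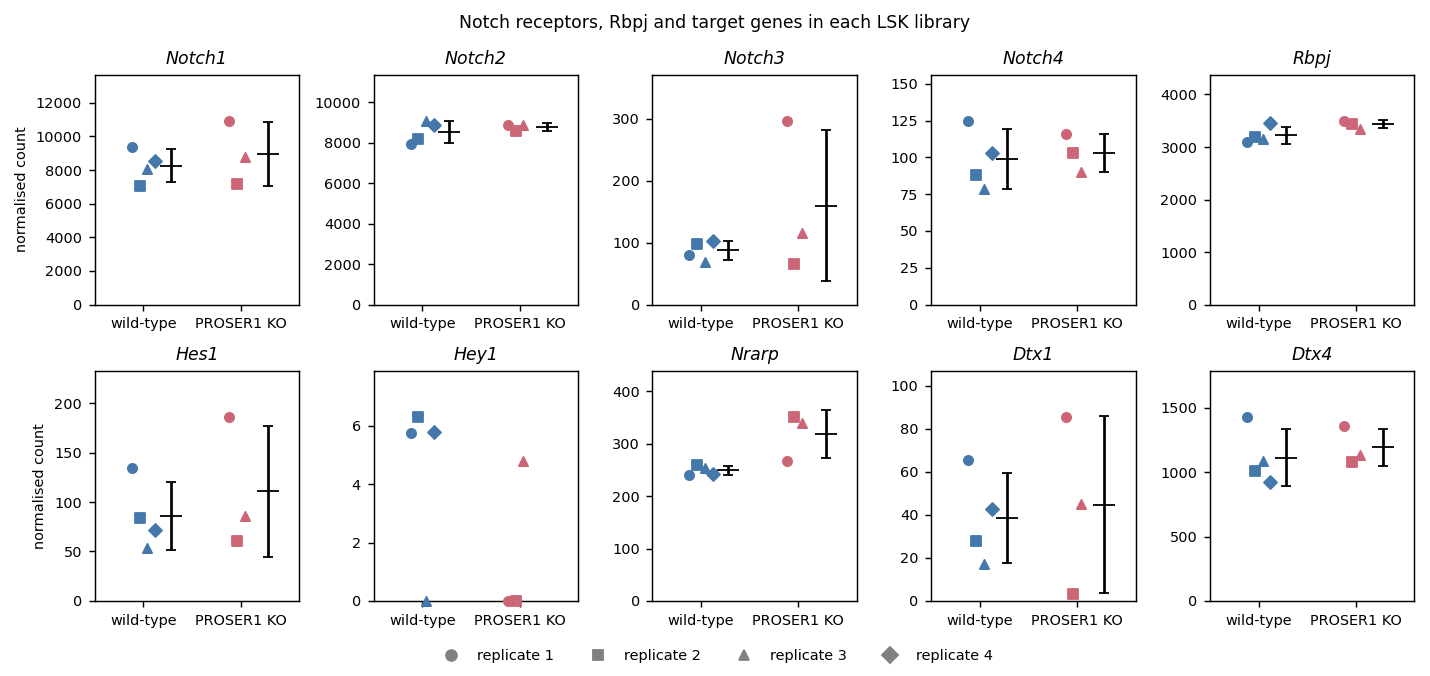
Normalized counts of the 10 members in each LSK library (vertical axes, linear, from 0), with wild-type libraries in blue, PROSER1 KO libraries in red, marker shapes for replicate numbers, and bars for mean ± SD (n = 4 and n = 3), which are left out for Hey1 because 3 of its libraries are at 0. Nrarp is the member whose groups do not overlap, and PROSER1 KO replicate 1 is the highest library for Notch1, Notch3, Rbpj, Hes1 and Dtx1.

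Notch1 and Notch2, the receptors with the best-known roles in lymphocytes, were by far the most abundant Notch receptors in the LSK libraries. Which cells of these libraries carried the mRNA cannot be told from bulk RNA. Notch1 (ENSMUSG00000026923, GRCm38 chromosome 2, 26457903 to 26516663, reverse strand) had 9391, 7070.2, 8084 and 8518 normalized counts in the 4 wild-type libraries in order of replicate number, while PROSER1 KO replicates 1 to 3 had 10943, 7179 and 8774. The groups overlapped, and each group's highest value was in its replicate 1. Wild-type averaged 8266 ± 965 (SD, n = 4) and PROSER1 KO 8965 ± 1889 (SD, n = 3), and the log2 fold change was 0.10 ± 0.14 (SE, limma-adjusted p = 0.861). The gene 0610009E02Rik overlaps Notch1 on the other strand, but its mean was only 39.7 normalized counts.

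Notch2 (ENSMUSG00000027878, chromosome 3, 98013527 to 98150361, forward strand) was the steadiest receptor. It had 7969, 8179.9, 9106 and 8882 normalized counts in wild-type, against 8899, 8573 and 8890.3 in the KO libraries, and its highest library exceeded its lowest by 1.14-fold, against 1.55-fold for Notch1. All 3 KO values lay inside the wild-type range. Its log2 fold change was 0.04 with a 95% interval of -0.08 to 0.17 (limma-adjusted p = 0.850). It was 0.03 without PROSER1 KO replicate 1 and between 0.01 and 0.08 over the single libraries left out.

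Notch3, known from vascular smooth muscle and from immature T cells, was low in 6 libraries and high in 1. Notch3 (ENSMUSG00000038146, chromosome 17, 32120820 to 32166852, reverse strand) had 79.8, 97.4, 69.0 and 103 normalized counts in wild-type, against 297, 65.2 and 116 in the KO libraries. PROSER1 KO replicate 2 was the lowest of the 7 libraries and PROSER1 KO replicate 1 the highest, 4.56-fold above it. The log2 fold change of 0.60 ± 0.43 (SE, limma-adjusted p = 0.697) became 0.01 without PROSER1 KO replicate 1. Of the stromal and mural markers, Acta2 was at 0 in all 7 libraries and Rgs5 in 6, whereas Pdgfrb, the most abundant, was at 1855 to 2901. Its highest value, in PROSER1 KO replicate 1, was close to that in wild-type replicate 3 (2889.6), where Notch3 was at 69.0. Of the 8 stromal and mural markers, 2 were highest in PROSER1 KO replicate 1. The T cell receptor subunits Cd3e, Cd3d and Cd3g were also highest in that library. Their part in the Notch3 value was not tested. An antisense gene, Gm17276, overlaps Notch3 and had a mean of 10.9 normalized counts, and it is not stated whether counting used the strand.

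Notch4, a receptor known mainly from endothelium, was as low as Notch3 but varied less. Notch4 (ENSMUSG00000015468, chromosome 17, 34564268 to 34588503, forward strand) had 125, 88.3, 78.2 and 103 normalized counts in wild-type, against 116, 103 and 90.2 in the KO libraries, a log2 fold change of 0.08 with a 95% interval of -0.39 to 0.54 (limma-adjusted p = 0.940). All KO values lay inside the wild-type range. Of the 8 endothelial markers, Tie1 was the most abundant (4985 to 6113 normalized counts, highest in wild-type replicate 2). Pecam1 was highest in PROSER1 KO replicate 1 and wild-type replicate 1 (5523 and 5487), the 2 highest libraries for Notch4, but it spanned only 4649.7 to 5523. Cdh5 was highest in PROSER1 KO replicate 3 (258), and 2 of the 8 endothelial markers were highest in PROSER1 KO replicate 1. Their part in the Notch4 value was not tested.

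Levels of different genes were compared as normalized counts per kb of annotated exon. On this scale Notch2 had a mean of 802 over the 7 libraries (range 739 to 845), Notch1 602 (497 to 769), Notch3 14.6 (8.06 to 36.8) and Notch4 12.5 (9.70 to 15.5). Notch2 was above Notch1 in 7 of 7 libraries, but this order depended on the length used, and with the longest transcript of each gene Notch1 was the higher one (903 against 823 per kb). Notch3 and Notch4 did not differ beyond their spread, with Notch3 above Notch4 in 3 of 7 libraries. Of the summed receptor level per kb, Notch1 held 41.6% ± 3.34 (SD, n = 4) in wild-type, against 42.3% ± 4.27 (SD, n = 3) for PROSER1 KO, and Notch2 held 56.8% ± 3.44 and 55.5% ± 5.06. Notch3 held 0.596% to 0.941% in wild-type, 2.23% in PROSER1 KO replicate 1, and 0.610% and 0.979% in PROSER1 KO replicates 2 and 3.

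**Figure D2:**
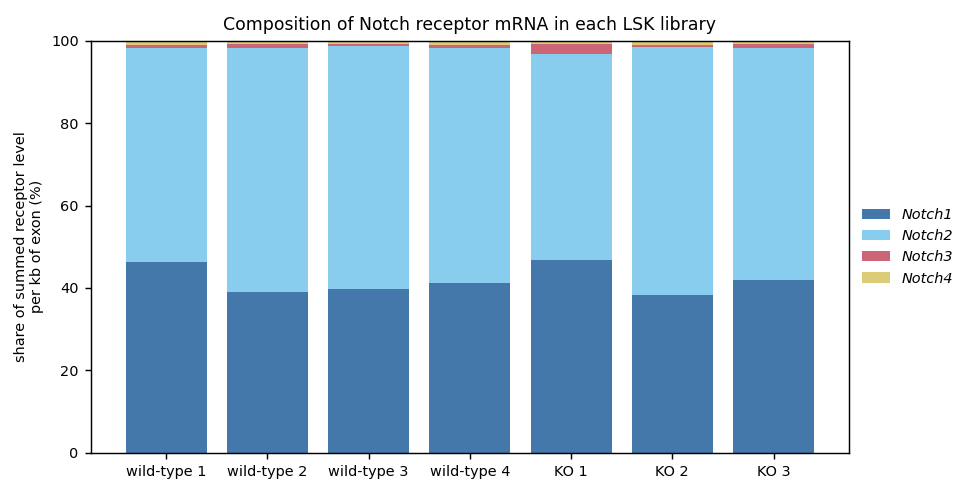
Share of each Notch receptor in the summed level per kb of exon (vertical axis, percent) for each of the 7 LSK libraries. Notch1 and Notch2 together fill nearly the whole bar everywhere, with Notch1 between 38.2% and 46.7%, and the largest Notch3 share, 2.23%, is that of PROSER1 KO replicate 1.

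The remaining members followed Notch1 in the order Rbpj (mean 260 normalized counts per kb), Dtx4 (219), Nrarp (108), Hes1 (47.4), then Notch3 and Notch4, Dtx1 (7.79) and Hey1 (0.992). Of these neighbors, Rbpj and Dtx4 overlapped in range, and Rbpj was the higher one in 6 of 7 libraries. Their closeness depended on the length used, and with the longest transcript of each gene Rbpj had 604 per kb against 219 for Dtx4. Dtx4 and Nrarp did not overlap, nor did Nrarp and Hes1. The range of Hes1 (26.5 to 91.2) overlapped that of Notch3, although Hes1 was above Notch3 within each of the 7 libraries.

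Rbpj (ENSMUSG00000039191, chromosome 5, 53466152 to 53657362, forward strand), the common nuclear partner of all Notch receptors, had 3088, 3191, 3148 and 3458 normalized counts in wild-type, against 3504, 3442 and 3352 in the KO libraries. Wild-type replicates 1, 2 and 3 lay below all KO libraries, and wild-type replicate 4 lay among them. The log2 fold change was 0.09 with a 95% interval of -0.02 to 0.21 (limma-adjusted p = 0.604) and between 0.07 and 0.13 when single libraries were omitted (0.08 for PROSER1 KO replicate 1). The antisense gene Gm40304, with a mean of 42.5 normalized counts, overlaps Rbpj, and processed pseudogenes of Rbpj can share its reads.

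Nrarp, which encodes a small ankyrin repeat protein that is induced by Notch and dampens it by binding the RBPJ complex, was the member whose groups did not overlap. Nrarp (ENSMUSG00000078202, chromosome 2, 25180758 to 25183339, forward strand) had 241, 259, 253 and 242 normalized counts in wild-type and the PROSER1 KO replicates, in order, 267, 351 and 339.9. All 3 KO libraries were above all 4 wild-type libraries, as was the case for 5.17% of all genes tested (4.83% lay lower without overlap), so that 1 of 9 members allows no statement about the members as a group. Wild-type averaged 249 ± 8.42 (SD, n = 4) and PROSER1 KO 319 ± 45.7 (SD, n = 3), a 1.27-fold difference that missed both thresholds (log2 fold change 0.35, standard error 0.13, 95% interval 0.07 to 0.63, adjusted p = 0.400 from limma). PROSER1 KO replicate 1, the library with the highest Notch1, Notch3 and Hes1, was the lowest KO library for Nrarp, and its omission gave a log2 fold change of 0.47.

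Hes1, a basic helix-loop-helix repressor and the classical Notch target, overlapped widely between the groups. Hes1 (ENSMUSG00000022528, chromosome 16, 30064384 to 30067796, forward strand) had 134, 83.8, 54.0 and 71.9 normalized counts in wild-type, against 186, 60.9 and 85.4 in the KO libraries. Replicate 1 was the highest library of each group. The log2 fold change of 0.28 ± 0.40 (SE, limma-adjusted p = 0.876) turned to -0.17 without PROSER1 KO replicate 1. Hey1 (ENSMUSG00000040289, chromosome 3, 8663359 to 8667256, reverse strand), a related repressor and arterial marker, had at most 7 read pairs in any library. It was at 5.77, 6.31, 0 and 5.80 normalized counts in wild-type and at 0, 0 and 4.80 in the KO libraries, and a difference was not detectable at this depth.

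The Deltex proteins are ubiquitin ligases that bind the intracellular part of Notch. Dtx1 (ENSMUSG00000029603, chromosome 5, 120680202 to 120711927, reverse strand), whose mRNA is a known Notch target in lymphocytes, was the most variable member, with 65.4, 27.9, 17.2 and 42.9 normalized counts in wild-type, against 85.5, 3.38 and 45.1 in the KO libraries. The 2 extremes, 25.3-fold apart, were both KO libraries. Its log2 fold change of -0.44 ± 0.91 (SE, limma-adjusted p = 0.922) was -1.31 without PROSER1 KO replicate 1 and 0.84 without PROSER1 KO replicate 2, so that no direction can be given. Dtx4 (ENSMUSG00000039982, chromosome 19, 12466338 to 12501454, reverse strand) was much more abundant, with 1428, 1006, 1089.6 and 927 normalized counts in wild-type, against 1357, 1081 and 1136 in the KO libraries. It also had replicate 1 as the highest library of each group, and its log2 fold change was 0.11 with a 95% interval of -0.21 to 0.43 (limma-adjusted p = 0.854). That value was 0.01 without PROSER1 KO replicate 1, 0.03 without wild-type replicate 4 and 0.24 without wild-type replicate 1.

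Across libraries, members thus differed mainly between single libraries. PROSER1 KO replicate 1 was the highest of the 7 libraries for 5 of the 9 tested members, and wild-type replicate 1 the highest wild-type library for 5 of 9. For Rbpj, PROSER1 KO replicate 1 was only slightly above wild-type replicate 4 (3504 against 3458 normalized counts). The shares over all genes tested were not computed, so that these counts allow no statement about the members as a group. Relative to the mean of PROSER1 KO replicates 2 and 3, PROSER1 KO replicate 1 was 3.53-fold higher in Dtx1, 3.28-fold in Notch3, 2.54-fold in Hes1, 1.37-fold in Notch1 and 1.22-fold in Dtx4, whereas Notch2 and Rbpj were 1.02-fold and 1.03-fold higher and Nrarp was at 0.773 of that mean. The SD of log2 values over the 7 libraries was 1.45 for Dtx1, 0.73 for Notch3 and 0.62 for Hes1, where counting error alone would give 0.355, 0.148 and 0.160. For Notch2 and Rbpj it was 0.07 each, against 0.016 and 0.025 from counting.

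Of 5 T-lineage genes in the list of further targets, singled out after their values had been seen, 4 were also highest in PROSER1 KO replicate 1. The exception was Gata3, a transcription factor of early T cells, which was highest in wild-type replicate 1 (1589 normalized counts) and had 1187 in PROSER1 KO replicate 1 against 959.8 to 1082 in the other 5 libraries. Ptcra, the pre-T cell receptor alpha chain, had 20.9 normalized counts (20 read pairs) in PROSER1 KO replicate 1 and 0 in the other 6 libraries. Il2ra, which encodes CD25, was at 1126 in PROSER1 KO replicate 1, 118 and 239 in PROSER1 KO replicates 2 and 3, and 307 to 541 in wild-type. Bcl11b, a factor of T-lineage commitment, had 611, 124 and 128 normalized counts in the KO libraries and 407 in wild-type replicate 1 against 132 to 205 in the other wild-type libraries. Tcf7, the gene of TCF1, had 1480.3, 514 and 699 against 658 to 979 in wild-type. The log2 fold changes of Il2ra, Bcl11b and Tcf7 were -0.33, 0.08 and 0.08 (adjusted p between 0.909 and 0.979 from limma) and -1.24, -0.68 and -0.36 without PROSER1 KO replicate 1. That of Il2ra was above 0 with edgeR and DESeq2 (0.27 and 0.28), so that no direction can be given. The part of T-lineage cells in the values of Notch3, Hes1, Dtx1 and Notch1 was not tested.

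**Figure D3:**
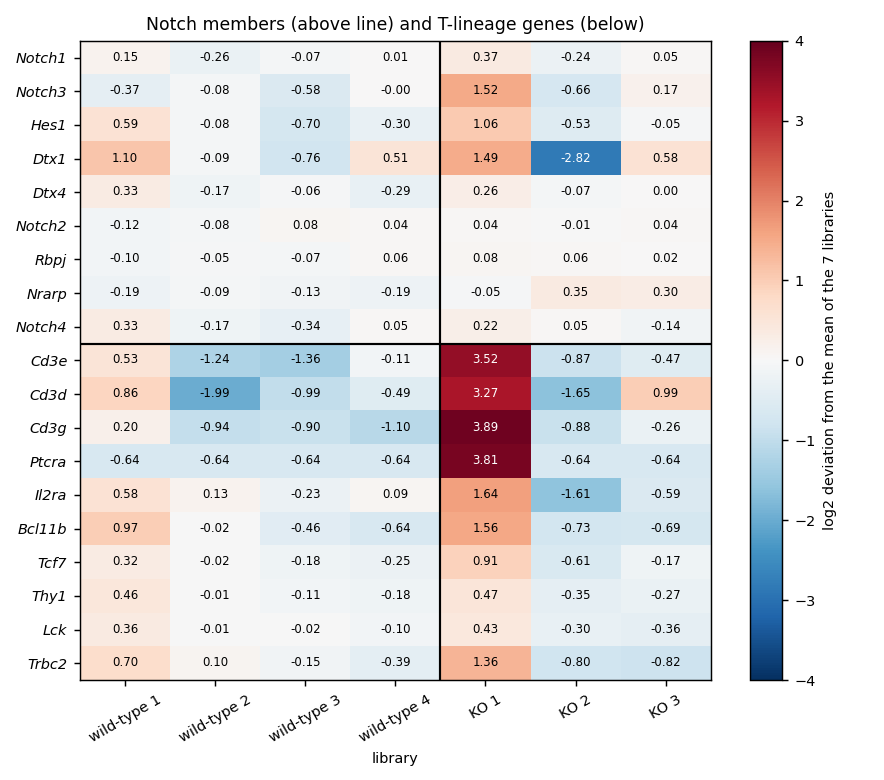
Deviation of log2(normalized count + 1) from the mean of the 7 LSK libraries, with genes as rows, libraries as columns (KO, PROSER1 KO), and red above and blue below the mean. In the column of PROSER1 KO replicate 1, Notch3 (1.52), Dtx1 (1.49), Hes1 (1.06) and Cd3g (3.89) are above the mean, while Nrarp (-0.05) is not. The T-lineage rows are a selection, each highest in PROSER1 KO replicate 1. Cd4, Klrb1c and Gata3 of the same lists, which were not highest there, and Cd8a are left out.

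The 3 genes nearest to Notch1 in pattern, among 11995 other genes with a mean of at least 100 normalized counts, were Rara, the retinoic acid receptor alpha, Cracr2a and Ncf1. Their log2 levels, centered over the 7 libraries, differed from those of Notch1 by a root mean square of 0.048, 0.069 and 0.069. For Hes1 the nearest were Stum, Drc7 and Trbc1, a constant segment of the T cell receptor beta chain, at 0.174, 0.215 and 0.221. Each was highest in PROSER1 KO replicate 1, as were Notch1 and Hes1 themselves, so that the choice by likeness largely fixed this. With 7 libraries these distances are a description only.

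Beyond the members, 74 further genes of the pathway in 7 lists were examined, of which 69 were tested. With limma 0 of 69 were called (7 at an unadjusted p-value under 0.05), with edgeR 0 (5), and with DESeq2 2, Dll1 and Neurl1a, where DESeq2 called 0.630% of all genes. The groups did not overlap in 6 of the 69, 3 higher and 3 lower, where 10% of all genes tested did not overlap. The median log2 fold change over the 69 genes was 0.01.

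The ligands were the list with the widest differences. Dll1, a Delta-like ligand, had 190.4, 149.6, 123 and 112 normalized counts in wild-type, against 75.1, 76.2 and 67.2 in the KO libraries. All KO libraries were below all wild-type libraries. The log2 fold change was -0.94 (standard error 0.21), which did not pass (adjusted p = 0.148 from limma) but did with DESeq2 (0.00795), and it lay between -1.05 and -0.80 over the 19 other settings. Jag2, the most abundant ligand, had 729, 657, 808 and 729 normalized counts in wild-type, against 534, 527 and 616 in the KO libraries, again without overlap (limma log2 fold change -0.39, adjusted p = 0.196). With DESeq2 its adjusted p-value was 0.0328 at a fold change below the minimum. Dlk1, an atypical ligand named here after its values were seen, was higher without overlap (49.0, 57.5 and 38.4 against 24.1 to 35.2, adjusted p = 0.447 from limma). Of the 5 tested ligands 0 were called by limma, with a median log2 fold change of 0.24.

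Genes that process the receptors showed small differences. Of the 10 proteases that cleave the receptor, 0 were called, 0 had an unadjusted p-value under 0.05 with limma, and the median log2 fold change was 0.02. Adam10, the sheddase of ligand-bound Notch, was the most abundant of them, at 9588 to 10215 normalized counts in wild-type and 9849.7 to 10529 in the KO libraries. Aph1b, a gamma-secretase subunit, had the largest difference (limma log2 fold change 0.24, adjusted p = 0.699). The same held for the 5 glycosylation enzymes, which tune ligand choice (median 0.01, lowest adjusted p = 0.599 from limma). Among them the Fringe enzyme gene Mfng was the most abundant, at 4865 to 5451 normalized counts, and Poglut1 had the largest difference, 0.11.

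Nuclear partners of RBPJ were steady as well. Of the 8 coactivator genes, 0 were called (median 0.09, lowest adjusted p = 0.547 from limma), and of the 15 corepressor genes 0 (median 0.01, lowest 0.615). Maml1, a Mastermind-like coactivator, had a log2 fold change of 0.13 (standard error 0.07), and Ep300, a histone acetyltransferase and the most abundant coactivator gene, also 0.13 (standard error 0.06). Among the corepressors, Ncor1 was the most abundant at 13997 to 14925 normalized counts, and its log2 fold change was 0.00 (standard error 0.04), and Tle2 had the largest difference at -0.18 (standard error 0.11). Tle1, named after its values were seen, did not overlap between the groups (633 to 689 in wild-type, 689.5 to 726 in the KO libraries).

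Among 15 genes of turnover and trafficking, 0 were called by limma, and the median log2 fold change was -0.01. Neurl1a, an E3 ligase gene of ligand endocytosis, had 68.3, 23.4, 28.7 and 31.3 normalized counts in wild-type, against 100.1, 116 and 70.1 in the KO libraries. The groups did not overlap, although wild-type replicate 1 lay close below PROSER1 KO replicate 3. Its log2 fold change was 1.40 ± 0.37 (SE, limma-adjusted p = 0.228), and it was called with DESeq2 (0.0344). Nedd4, a ubiquitin ligase and the most abundant gene of this list, differed by less than the spread between replicates (23739 ± 1094, SD, n = 4, against 23680.3 ± 1150.1, SD, n = 3).

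Of the 14 further target genes, 11 were tested and 0 called by limma, with a median log2 fold change of -0.07. Hes7, a repressor related to Hes1, had the largest difference, with 13.5 to 29.7 normalized counts in wild-type and 6.77 to 14.6 in the KO libraries (limma log2 fold change -0.97, adjusted p = 0.494). Hes5, whose promoter is printed above and which is named after its values were seen, had 109.6, 104, 67.8 and 104 normalized counts in wild-type, against 37.6, 51.6 and 93.1 in the KO libraries. PROSER1 KO replicate 1, the highest library for Hes1, was the lowest for Hes5 (limma log2 fold change -0.73, adjusted p = 0.50). Myc, the most abundant target, was at 11820 ± 1652 (SD, n = 4) and 11178 ± 675 (SD, n = 3). Ccnd1, also named after its values were seen, did not overlap between the groups (2502 to 2726 and 2251 to 2468).

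**Figure D4:**
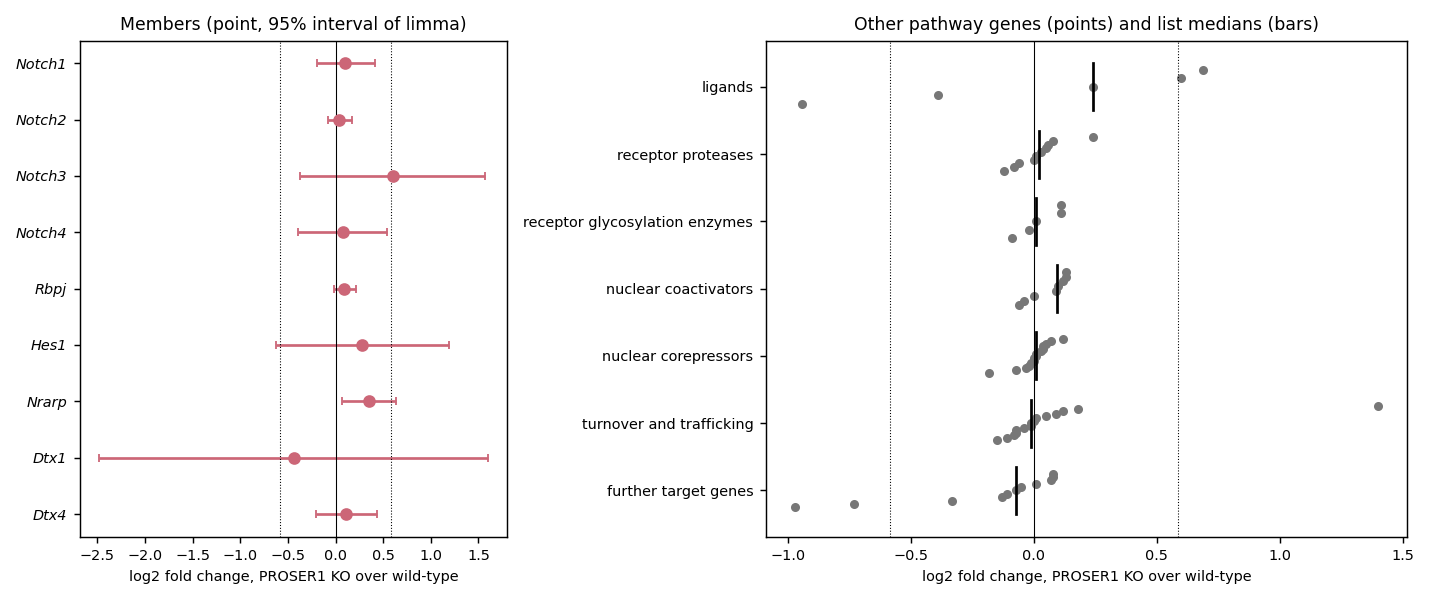
Log2 fold changes of PROSER1 KO over wild-type LSK libraries from limma, at left for the 9 tested members with 95% intervals and at right for the 69 tested genes of the 7 pathway lists (points) with list medians (vertical bars). Dotted lines mark 1.5-fold, and the points outside them at right, Dll1, Dlk1, Dll4, Hes5, Hes7 and Neurl1a, did not pass the adjusted p-value.

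Markers of other cell types were measured in the same libraries. No marker of the 8 lists was called by limma. The B-cell sum (3409 to 6910.4 in wild-type, 3459 to 5293 in the KO libraries, led by Cd79b), the plasma cell sum (172205 to 432130.4 and 201084 to 300831), the stromal and mural sum (2215 to 3283 and 3042 to 3414, led by Pdgfrb) and the macrophage sum (1356 to 2106 and 1929 to 2285, led by Cd68) overlapped between groups, as did the sum of the LSK markers. The endothelial sum (15476 to 17309 and 17820.0 to 18985, led by Tie1) and the megakaryocyte sum (7144 to 9034 and 9359.8 to 12181, led by Itga2b) did not. These sums are not independent, because Vwf (1103 to 2914 in wild-type, 2509 to 4231 in the KO libraries) is in both lists. With Vwf left out, both sums overlapped between the groups. Many genes of these last lists are also expressed by HSCs, and the part of any of these cells in the values of Nrarp, Dll1, Jag2 and Neurl1a was not tested.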

How the data were processed

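Sorted LSK cells gave 4 wild-type and 3 PROSER1 KO RNA libraries. Per the methods and labels, the authors used Trimmomatic for trimming, STAR for mapping to mm10 and featureCounts for counting read pairs of each gene, and DESeq2 size factors scaled the result. The deposited table thus holds normalized signal, without a filter on low values, and the gene identifier column is headed with an earlier GENCODE release than the methods name. Every value was a whole multiple of its library's smallest value (100% within 0.01 read pairs), which gave back the read pairs for edgeR and DESeq2. Unused columns of samples numbered 0.

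Groups were compared with limma 3.58.1 (R 4.3.3; trend) on log2(normalized count + 1), restricted to 16251 genes averaging at least 10. Fold changes of low genes are understated on this scale. edgeR 4.0.16 (quasi-likelihood) and DESeq2 1.42.0 were alternatives, beside pseudocounts of 0.1 and 10, no filter, a filter at 50, eBayes that was robust or lacked the trend, quantile and TMM normalization, no fold change minimum, a replicate block and each library left out. The omission of replicate 1 of both groups was chosen after seeing the data. In simulated data of 16244 genes, limma recovered 63 of 66 genes changed 4-fold, 48 of 66 changed 2-fold and 14 of 67 changed 1.5-fold, with 4 false calls. The spread between simulated libraries followed an assumed formula and was not estimated from these libraries. It held no differences in cell mixture, so that these rates are not the power of this comparison.

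The members and gene lists were chosen with earlier results of these data known. Named genes were the members, Proser1, in each pathway list the most abundant gene and the largest difference, in each marker list the most abundant gene and those at 0 in all libraries, and for Notch1 and Hes1 the 3 genes nearest in pattern. Kit, Cd3d, Cd3e, Cd3g, Cd4, Cd8a, Thy1, Klrb1c, Rgs5, Pecam1, Cdh5 and Vwf were named after their values were seen. Positions and exon lengths come from GENCODE M21 (GRCm38), promoters from RefSeq (GRCm38.p6). Libraries of the same group differed by more than sampling noise (ratio of chi-square to its degrees of freedom, 30.4 to 96.6).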

Additional observations from a re-analysis of the deposited data

Results flagged for a closer look

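Among the 4 wild-type libraries, 1 value lay far from the others in 2 of the 25 named genes examined, where chance flags about 1 in 20. Hey1 was at 0 normalized counts in wild-type replicate 3 and at 5.77 to 6.31 in the other wild-type libraries, all within a few read pairs. Poglut1, an enzyme that glycosylates Notch receptors, was at 1676 normalized counts in wild-type replicate 2 and at 1484 to 1490.5 in the other wild-type libraries.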

How the results depend on the processing

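In limma 42 genes were called, 17 without the variance trend, 80 with robust variance estimates, 165 with DESeq2, 13 without replicate 1 of both groups, and 23 to 42 with each library left out, 23 being without PROSER1 KO replicate 2. The cause was not tested beyond the smaller number of libraries. The number of members called was 0 under all alternatives run, including each library left out (0 to 0). Of the wider pathway, 2 genes were called with DESeq2 and 0 under the other alternatives. Of 170 values of members under alternatives, 162 kept their direction. With each library left out, log2 fold changes ranged from -0.05 to 0.25 for Notch1, 0.01 to 1.10 for Notch3, -0.03 to 0.20 for Notch4, -0.17 to 0.63 for Hes1, -1.31 to 0.84 for Dtx1 and 0.01 to 0.24 for Dtx4, and the extremes of Notch1, Notch3, Hes1 and Dtx1 were without PROSER1 KO replicates 1 and 2. Those of Notch4 were without wild-type replicates 3 and 1, and those of Dtx4 without PROSER1 KO replicate 1 and wild-type replicate 1. Notch3 was at -0.02 without replicate 1 of both groups, and Dtx1 at 0.20 with edgeR and 0.22 with DESeq2. The cause was not tested.

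The log2 difference of Proser1 was 0.17 to 0.21 with each library left out, where the exact test cannot go below 0.0667 or 0.1. With the longest transcript as gene length, Notch1 held 51.2% and Notch2 47.1% of the receptor level. With each library left out, the shares of Notch1 to Notch4 were 41.1% to 42.5%, 55.6% to 57.3%, 0.783% to 1.06% and 0.838% to 0.906%.

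The labels do not say whether replicate numbers pair the libraries. Deviations from the group means correlated at 0.023, 0.058 and -0.106 over genes for numbers 1 to 3, and not every library correlated best with its own number. These correlations cannot show whether libraries of the same number were handled together. With the replicate block 35 genes and 0 members were called. At the depth of these libraries, Hey1 was too low for any comparison.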
